A study of Homo sapiens with 18 samples.

Results

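RNA was sequenced from blood cells grown out of H1, an established human embryonic stem cell line, and the comparison described here asked which genes changed differently between day 16 (D16) and day 30 (D30) of differentiation when USB1 was mutated. It used all 12 libraries of those days among the 18 of the series, in 4 groups of 3: WT D16, USB1 mutant D16, WT D30 and USB1 mutant D30. The D16 groups were hematopoietic progenitors, isolated as CD34+CD45+ cells, and the D30 groups were mature blood cells, so day and cell population changed together in both genotypes. The WT cells were unedited H1 and the mutant cells H1 with a disease-associated frameshift deletion in USB1. The deletion was made with CRISPR/Cas9, and cells were picked by hand after seeding at low density. How many edited clones the libraries came from is not stated. If it was a single clone, its other differences from WT cannot be told apart from the mutation. Nothing in the sources used here says that replicates came from separate cultures, and p-values measure only the spread between these libraries.

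USB1 is an RNA exonuclease that trims the 3′ ends of U6 small nuclear RNA and removes oligo(A) tails from microRNAs. Inherited loss of USB1 causes poikiloderma with neutropenia, a disorder of skin and bone marrow in which too few neutrophils are made. Progenitors that mature in culture stop dividing and take on the genes of their lineage: macrophages express scavenger receptors and lysosomal enzymes, red cell precursors express globins and heme enzymes, and mast cells, basophils and eosinophils express granule proteins. A genotype-by-day interaction is the mutant change from D16 to D30 minus the WT change, on the log2 scale: 0 means the same change in both genotypes, a value above 0 a mutant change that lies higher, and a value below 0 a mutant change that lies lower.

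The libraries held 4125102 to 19368903 estimated counts, with the fewest in USB1 mutant D30 replicate 3, and the correlation of log2 levels between replicates was 0.9429 to 0.9825. Levels are given as CPM, the estimated count as a share of the library's TMM-scaled total in the usual unit, in the order of replicates 1, 2 and 3. For USB1, the levels were 56.4, 47.7 and 56.9 CPM (WT, D16), 59.7, 66.8 and 67.8 (WT, D30), 54.5, 46 and 56.2 (mutant, D16) and 40.1, 60.3 and 63.5 (mutant, D30). Transcripts of the edited gene were still counted, and the groups overlapped on both days, with an interaction of -0.22 ± 0.24 (SE, adjusted p = 0.599), so this level does not check the genotype labels. CD34, the progenitor antigen, fell between the days in both genotypes, to 14.3, 13.5 and 13.6 CPM in WT and 18.1, 12.2 and 7.23 in the mutant from 70.9, 109 and 162 and 127, 147 and 153, and its interaction was -0.40 ± 0.40 (SE, adjusted p = 0.571). PTPRC, which encodes the leukocyte antigen CD45, had means of 675 and 622 CPM in WT and 473 and 358 in the mutant, and its interaction was -0.29 ± 0.31 (SE, adjusted p = 0.6). Its genotype difference was -0.51 at D16 and -0.80 at D30 (edgeR, adjusted p = 0.14 and 0.024). CD34 and PTPRC both lie on chromosome 1q, whose genes had lower median levels in the mutant on both days. The pluripotency list, of 10 tested genes, summed to 105 to 165 CPM in WT and 237 to 252 in the mutant at D16, groups that did not overlap, and to 54.4 to 68 and 57.2 to 90.8 at D30, which overlapped. Of its members, LIN28A, an RNA-binding protein of stem cells, averaged 17.3 CPM in WT and 52.2 in the mutant at D16, POU5F1 averaged 4.42 to 14 over the 4 groups and NANOG 1.88 to 4.60. These 3 were chosen after their values were seen, and their part in the other differences was not tested.

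Of 15492 genes tested, 2689 (17.4%) passed the test of the interaction, with adjusted p-values from edgeR under 0.1: 1327 lay above 0 (8.57%) and 1362 below (8.79%). The interaction exceeded 2-fold for 1574 genes, 817 above 0 and 757 below. The change between the days was called for most genes in each genotype: 5118 rose (33.0%) and 5351 fell (34.5%) in WT, and 5454 rose (35.2%) and 5563 fell (35.9%) in the mutant. Read against the WT change, 721 of the 2689 genes failed to rise in the mutant, 641 failed to fall, 722 moved further in the WT direction, 604 moved in the mutant alone, and for 1 neither change passed. The genes that failed to rise were 377 that rose less, 269 that did not rise and 75 that fell instead. Those that failed to fall were 218 that fell less, 287 that did not fall and 136 that rose instead. Among the genes that moved further, 348 rose further and 374 fell further, and in the mutant alone 338 rose and 266 fell. These kinds come from 3 calls of the same fit, which share libraries, and “did not rise” or “did not fall” means only that the mutant change did not pass the test. Leaving out a single library moved the 2689 calls to between 1553 (without WT D16 replicate 1) and 3400 (without WT D16 replicate 3), the number was 1643 without WT D16 replicate 2, and it was 1720 when the deposited transcript lengths entered the fit.

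**Figure D1:**
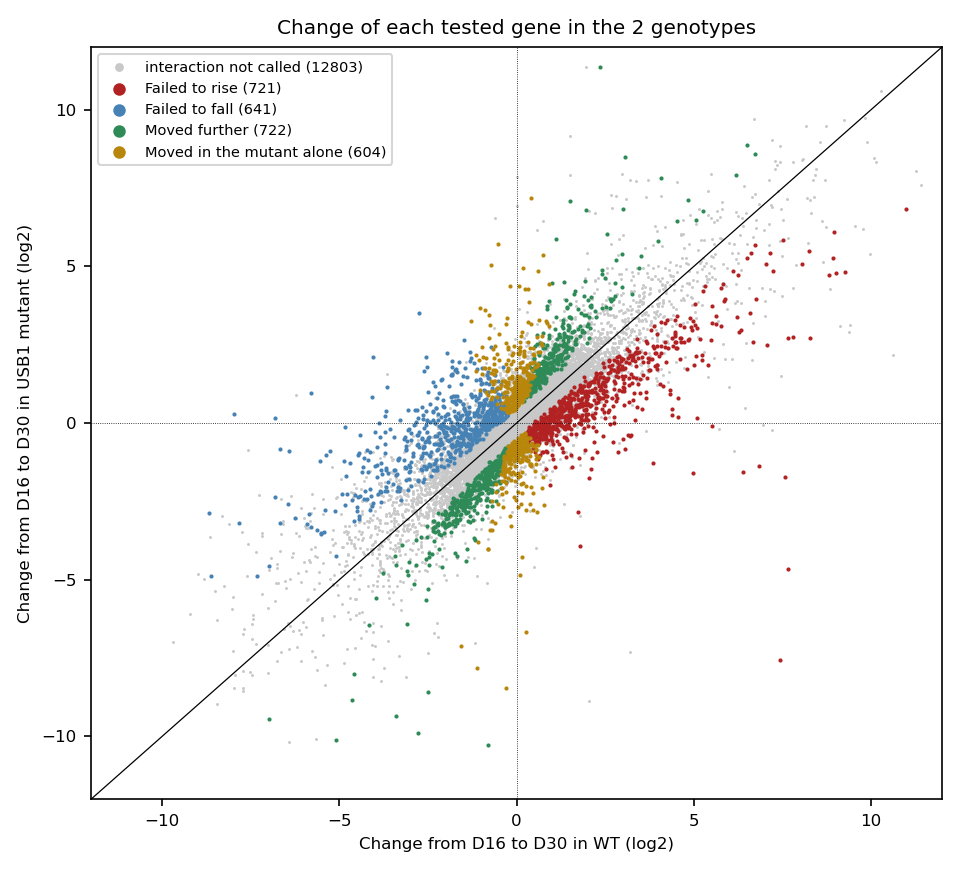
Change from D16 to D30 in WT (x axis, log2) against the change in the USB1 mutant (y axis, log2) for 15492 genes, with the diagonal of equal change. Grey points had no called interaction, and the colours mark the 721 genes that failed to rise, the 641 that failed to fall, the 722 that moved further and the 604 that moved in the mutant alone.

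The plot of the changes shows that most genes lay along the diagonal, and that genes with an interaction lay off it on both sides. An interaction can open a difference between the genotypes or close it. At D16, 1743 genes were higher in the mutant (11.3%) and 1586 lower (10.2%), and at D30 2100 were higher (13.6%) and 2052 lower (13.2%). Among the 2689 genes with an interaction, the genotypes differed at D30 only for 1274 (47.4%), at D16 only for 794 (29.5%), on both days in opposite directions for 309 (11.5%), on both days in the same direction for 98 (3.64%) and on neither day for 214 (7.96%). Failing to rise therefore covered 304 genes that were lower in the mutant at D30 only and 220 that were higher in the mutant at D16 only and level with WT afterwards by the test. The bars of the class plot divide each kind of change in this way: D30-only differences made up 227 of the 348 genes that rose further, and D16-only differences 128 of the 374 that fell further.

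**Figure D2:**
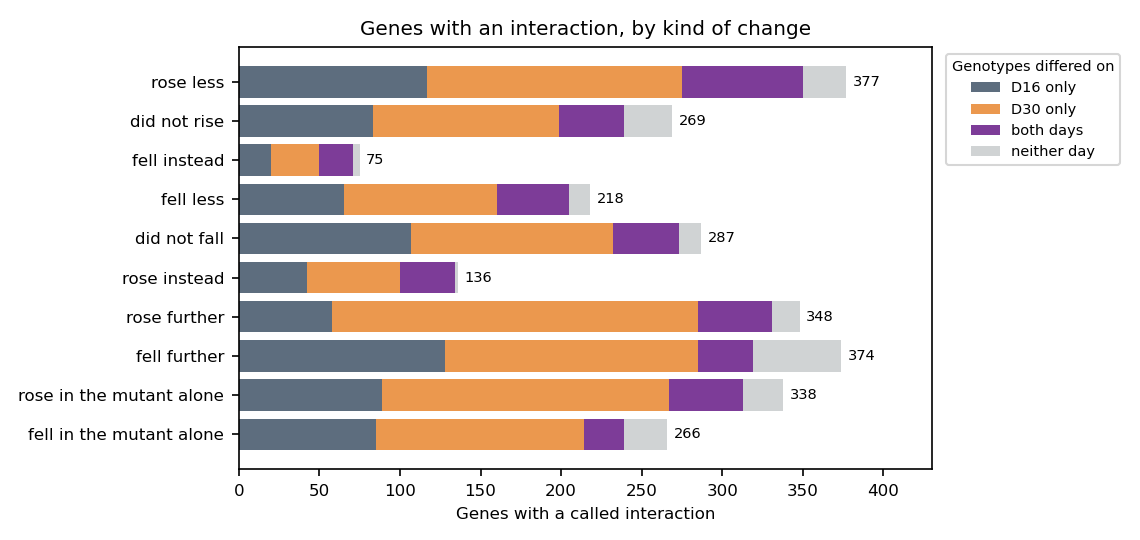
Number of genes with a called interaction (x axis) for each kind of change in the USB1 mutant relative to WT, split by the days on which the genotypes differed. The longest bars are the 377 genes that rose less and the 374 that fell further, and the shortest is the 75 that fell instead of rising.

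Interferon-stimulated genes, which restrict virus replication and are switched on together by interferons, mostly failed to rise in the mutant. Of the 23 tested members of this list, 18 had an interaction below 0 and 0 above 0, where 8.79% of all genes lay below, and the 18 were 9 that rose less, 3 that did not rise, 5 that fell instead and 1 that fell in the mutant alone. The median interaction was -2.29, against -0.04 over all genes tested. The median change was 3.06 in WT and 0.76 in the mutant, also on the log2 scale. Summed over the list, WT libraries held 356 to 391 CPM at D16 and 1880 to 2150 at D30, and mutant libraries 398 to 436 and 434 to 592. The genotypes were thus close in the progenitors and far apart in the mature cells. In bulk RNA, fewer expressing cells and less RNA per cell cannot be told apart. Macrophage genes, which are described next, moved beside them: 13 of 21 tested markers had an interaction below 0 and 0 above, and their sum at D30 was 5510 to 7080 CPM in WT and 3120 to 4030 in the mutant. The part of cell composition in the interferon result was not tested.

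MX1 (ENSG00000157601, chr21:41420020-41470071, plus strand), a GTPase that traps viral particles, did not rise in the mutant. MX1 read 7.24, 6.71 and 8.82 CPM in the 3 WT libraries at D16 and 204, 199 and 132 at D30, against 4.17, 8.06 and 8.80 and then 6.50, 9.61 and 7.75 in the mutant. All mutant libraries at D30 stood below all WT libraries and near the levels of D16, and the interaction was -4.37 ± 0.38 (SE, adjusted p = 0.00015). IFI6, a mitochondrial interferon-induced protein, rose less. In WT, IFI6 went from 12.3, 11.3 and 14.7 CPM at D16 to 516, 462 and 454 at D30, and in the mutant from 10.2, 11.6 and 12 to 27.9, 60.9 and 65.1. Its groups overlapped at D16 and not at D30, and its interaction was -3.05 ± 0.35 (SE, adjusted p = 0.00065). OAS3, a sensor of double-stranded RNA, also rose less. WT libraries held 8.16, 7.06 and 10.3 CPM of OAS3 at D16 and 243, 221 and 138 at D30, and mutant libraries 16.1, 11 and 12.6 and 19.3, 30.6 and 18.3. Each mutant library lay above the WT libraries at D16 and below them at D30, and the interaction was -3.75 ± 0.36 (SE, adjusted p = 0.0004). OAS2, its neighbour in the same family, fell instead. For OAS2, the levels were 0.345, 0.778 and 1.20 CPM (WT, D16), 36, 29.2 and 12.7 (WT, D30), 1.10, 0.837 and 1.14 (mutant, D16) and 0.0970, 0.560 and 0.258 (mutant, D30). Mutant levels at D30 were under 1 CPM, and the interaction was -6.58 ± 0.79 (SE, adjusted p = 0.00065).

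USP18, which removes the ubiquitin-like protein ISG15 and damps interferon signalling, fell instead of rising. WT libraries held 1.15, 1.68 and 1.98 CPM of USP18 at D16 and 14.6, 15.5 and 10.6 at D30, and mutant libraries 2.67, 3.12 and 3.90 and 1.46, 2.16 and 1.81. The order of the genotypes turned over between the days, with an interaction of -3.88 ± 0.42 (SE, adjusted p = 0.00059). PARP14, an ADP-ribosyltransferase outside the list, rose less. In WT, PARP14 went from 17.8, 25.6 and 24.1 CPM at D16 to 273, 342 and 259 at D30, and in the mutant from 45.9, 40 and 44 to 110.4, 144 and 98.9. It too was higher in every mutant library at D16 and lower in each at D30 (interaction -2.24 ± 0.25 SE, adjusted p = 0.00059). EIF2AK2 encodes PKR, the kinase that stops translation when it binds double-stranded RNA. It stands outside the list too, and it fell instead. EIF2AK2 read 38.7, 46.4 and 54.7 CPM in the 3 WT libraries at D16 and 127, 121 and 121 at D30, against 73.8, 59.7 and 78.2 and then 40.6, 57 and 55.8 in the mutant. The interaction was -1.87 ± 0.23 (SE, adjusted p = 0.00083), and EIF2AK2 overlaps GPATCH11 on the opposite strand, so its counts carry that uncertainty.

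Promoters of these genes are shown because interferon-induced factors bind a defined element there. The letters GAAA followed after 2 bases of any kind by GAAA, searched on both strands in the 300 bases around each RefSeq start (250 before and 50 after, GRCh38.p14), were found for 15 of the 17 tested list members with an entry (88.2%) and for 4.06% of the 11444 tested genes with an entry. They were found for 5.03% of the genes with an interaction below 0 and 3.91% of those above. A match is a description of the letters and not a bound site. The 160 bases before the start are printed for the members IFI6 and OAS3 and for PARP14, with the matches in capitals.
IFI6, chr1:27672193-27672352, minus strand: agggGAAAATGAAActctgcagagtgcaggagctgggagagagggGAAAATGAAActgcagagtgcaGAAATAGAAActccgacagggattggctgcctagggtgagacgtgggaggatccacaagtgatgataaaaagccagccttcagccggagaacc
OAS3, chr12:112938314-112938473, plus strand: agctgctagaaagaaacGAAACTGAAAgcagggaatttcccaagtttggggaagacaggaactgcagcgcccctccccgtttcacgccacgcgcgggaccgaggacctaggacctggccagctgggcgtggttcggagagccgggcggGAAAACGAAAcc
PARP14, chr3:122680679-122680838, plus strand: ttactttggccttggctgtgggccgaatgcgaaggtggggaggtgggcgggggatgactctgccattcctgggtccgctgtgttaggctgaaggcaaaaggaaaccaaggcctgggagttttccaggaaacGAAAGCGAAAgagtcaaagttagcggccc

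IFI6 holds 3 matches in its window, OAS3 holds 2 and PARP14 holds 1. Genes of MHC class I and peptide loading, which display peptides to T cells and respond to the same cytokines, moved less uniformly. Of 14, 4 had an interaction below 0 and 2 above, against 8.79% and 8.57% of all genes. The count above 0 was 0 without WT D30 replicate 2 and 1 in 9 of the other 11 fits that left out a library. NLRC5, the transactivator of class I genes, had an interaction of -1.27 ± 0.31 (SE, adjusted p = 0.0223), ERAP2, which trims peptides, -1.56 ± 0.34 (SE, adjusted p = 0.0124) and HLA-F -3.63 ± 0.91 (SE, adjusted p = 0.023). All 3 rose in WT and did not rise in the mutant, and HLA genes share reads with near-identical relatives. CALR, a chaperone of the loading complex, fell less, with an interaction of 0.66 ± 0.20 (SE, adjusted p = 0.0487). The count below 0 was 2 with the filter of 5 CPM and 2 with the transcript lengths.

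**Figure D3:**
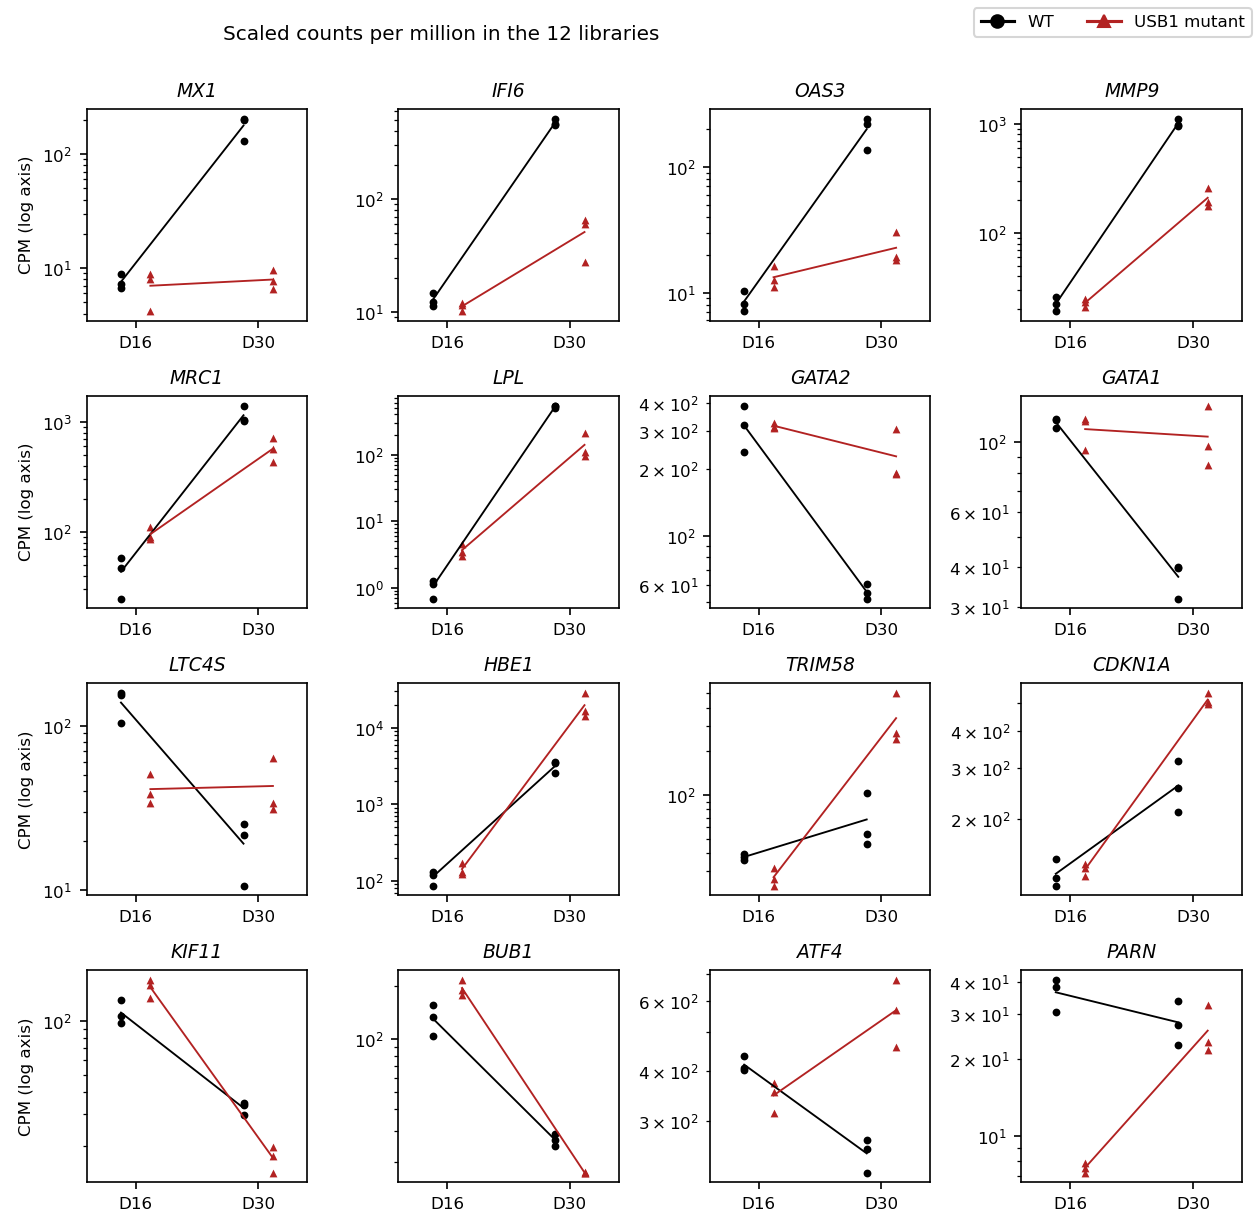
TMM-scaled CPM (y axes, log scale, separate range for each gene) of 16 genes at D16 and D30 in each of the 12 libraries. Points are libraries and lines join group means, WT as black circles and the USB1 mutant as red triangles. MX1 stayed at 6.50 to 9.61 CPM in the mutant at D30, while WT reached 132 to 204.

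Most genes of macrophage maturation rose in both genotypes, and many rose less in the mutant. In the list of scavenger, complement and phagocytosis genes, 19 of 21 tested members rose in WT and 16 in the mutant. Over all genes, 33.0% and 35.2% rose. Of the 21 on the list, 13 had an interaction below 0 and 0 above, where 8.79% of all genes lay below. The median change was 3.91 in WT and 2.47 in the mutant, and the median interaction -1.95. The summed level of the list was 882 to 1210 CPM in WT and 1120 to 1340 in the mutant at D16, and 5510 to 7080 and 3120 to 4030 at D30, so the range of the mutant lay lower at D30 without overlap. VSIG4, a complement receptor of resident macrophages, rose less. VSIG4 read 0.460, 1.14 and 0.635 CPM in the 3 WT libraries at D16 and 452, 399 and 359 at D30, against 2.20, 2.97 and 1.75 and then 104, 213 and 155 in the mutant. Mutant libraries were higher at D16 and lower at D30, and the interaction was -2.87 ± 0.47 (SE, adjusted p = 0.0029). MRC1, the mannose receptor CD206, followed the same order. WT libraries held 24.7, 58.3 and 47.1 CPM of MRC1 at D16 and 1402, 1011 and 1042 at D30, and mutant libraries 110.2, 85.6 and 90.2 and 431, 721 and 562. All 3 mutant libraries lay above WT at D16 and below it at D30, with an interaction of -2.14 ± 0.38 (SE, adjusted p = 0.0045). SIGLEC1, a sialic acid-binding receptor, rose less as well, with an interaction of -1.97 ± 0.36 (SE, adjusted p = 0.0049).

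CD36, a scavenger receptor for oxidised lipids that red cell and platelet precursors also carry, did not rise in the mutant. In WT, CD36 went from 24.9, 57.6 and 64 CPM at D16 to 328, 220.2 and 279.8 at D30, and in the mutant from 141, 114 and 115 to 139.6, 153 and 117. The mutant libraries were at the same level on both days, between the WT levels of D16 and D30 (interaction -2.34 ± 0.38 SE, adjusted p = 0.0028). CSF1R, the receptor for the macrophage growth factor CSF1, behaved alike in its values. For CSF1R, the levels were 62.8, 108 and 171 CPM (WT, D16), 584, 612 and 401 (WT, D30), 199, 231 and 254 (mutant, D16) and 282, 341 and 239 (mutant, D30). It did not rise in the mutant, and its interaction was -1.89 ± 0.40 (SE, adjusted p = 0.0112). Among lysosome and lipid genes, 9 of 22 had an interaction below 0 and 2 above, against 8.79% and 8.57% of all genes. Both genotypes rose far in this list: the median change was 4.01 in WT and 3.97 in the mutant. LPL, the lipoprotein lipase that macrophages secrete, rose less. WT libraries held 0.690, 1.14 and 1.27 CPM of LPL at D16 and 534, 539 and 504 at D30, and mutant libraries 4.56, 3.04 and 3.43 and 96, 214 and 110. Every mutant library was above the WT range at D16 and below it at D30, with an interaction of -3.67 ± 0.45 (SE, adjusted p = 0.00074). TREM2, a lipid-sensing receptor, rose less with an interaction of -2.97 ± 0.56 (SE, adjusted p = 0.0064), and so did NR1H3, which encodes the oxysterol receptor LXR alpha, at -1.67 ± 0.24 (SE, adjusted p = 0.0017). FABP4, a fatty acid carrier, did not rise in the mutant (-5.59 ± 0.78 SE, adjusted p = 0.0013). Its level at D30 was low in both genotypes, at 1.64 CPM in the mutant against 7.13 in WT. The interaction also takes in the genotype difference at D16 and is not the size of this gap.

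MMP9, the gelatinase of macrophage and neutrophil granules, rose less. MMP9 read 25.6, 22.3 and 19.1 CPM in the 3 WT libraries at D16 and 973, 959.5 and 1114 at D30, against 24.6, 21 and 23.1 and then 259, 192 and 178 in the mutant. The genotypes overlapped at D16 and were far apart at D30, with an interaction of -2.31 ± 0.23 (SE, adjusted p = 0.00043). MMP12, the macrophage elastase, was near 0 in all groups at D16, had means of 123 CPM in WT and 20.8 in the mutant at D30, and lost its call without USB1 mutant D16 replicate 3 (adjusted p = 0.167). OCSTAMP, needed for the fusion of osteoclasts and giant cells, rose less (-4.43 ± 0.89 SE, adjusted p = 0.0084), and FABP3 and SIGLEC11 rose less with interactions of -3.38 and -4.10. At D16, OCSTAMP, FABP3 and SIGLEC11 averaged 0.067, 0.99 and 0.085 CPM in WT, and the mutant stood higher by 2.24, 2.36 and 2.85 (log2). At D30 their genotype differences were -2.20, -1.02 and -1.25, smaller in size than the interactions. Monocyte and inflammatory genes had 4 of 20 members below 0, against 8.79% of all genes, and 0 above. Those were CLEC10A, which rose less (-2.93 ± 0.73 SE, adjusted p = 0.0233), VCAN and CD86, which fell in the mutant alone (-2.03 and -0.85), and CCR2, which fell further (-1.58). That count was 1 without WT D16 replicate 1 or WT D30 replicate 1, 2 without USB1 mutant D16 replicate 3 or USB1 mutant D30 replicate 1, and 7 without USB1 mutant D30 replicate 2.

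Mast cell, basophil and eosinophil genes mostly fell from D16 to D30 in WT, 12 of 19 and 10 of 12, where 34.5% of all genes fell. Many of these genes failed to fall in the mutant. Of 19 tested mast cell and basophil genes, 12 had an interaction above 0 and 1 below, where 8.57% of all genes lay above. The median change was -1.73 in WT and 0.30 in the mutant. Summed over the list, WT libraries held 2150 to 3350 CPM at D16 and 721 to 994 at D30, and mutant libraries 2110 to 2960 and 1490 to 3170. Tryptase genes in this list share reads with near-identical copies. Eosinophil genes had 10 of 12 members above 0 and 0 below, with a median change of -2.02 in WT and -0.12 in the mutant. Without WT D16 replicate 1 the count was 5. Their summed level was 33600 to 61600 CPM in WT and 6690 to 10500 in the mutant at D16, and 1540 to 7390 and 3010 to 7250 at D30, so the genotypes were apart in the progenitors and overlapped in the mature cells.

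GATA2 (ENSG00000179348, chr3:128479427-128493201, minus strand), a zinc finger factor of stem cells and mast cells, fell less. GATA2 read 388, 319 and 241 CPM in the 3 WT libraries at D16 and 60.2, 51.9 and 55 at D30, against 312, 326 and 309 and then 192, 192 and 303 in the mutant. The genotypes overlapped at D16, every mutant library at D30 was above every WT library, and the interaction was 2.04 ± 0.28 (SE, adjusted p = 0.0013). GATA1 (ENSG00000102145, chrX:48786540-48794311, plus strand), the related factor of red cells, megakaryocytes, mast cells and eosinophils, did not fall. WT libraries held 119, 118 and 111 CPM of GATA1 at D16 and 40.2, 31.9 and 40 at D30, and mutant libraries 94.4, 117 and 119 and 130.4, 84.7 and 97.1. The genotypes overlapped at D16, and all mutant libraries were above WT at D30, with an interaction of 1.56 ± 0.23 (SE, adjusted p = 0.0019). IL1RL1, the receptor for the alarmin IL-33 on mast cells, fell less. In WT, IL1RL1 went from 760.2, 688 and 398 CPM at D16 to 34.6, 24.2 and 32.8 at D30, and in the mutant from 479, 307 and 282 to 72.7, 133 and 203. At D16 the genotypes overlapped, and at D30 each mutant library was above WT, with an interaction of 2.94 ± 0.48 (SE, adjusted p = 0.0029). LTC4S, which makes leukotriene C4, did not fall. For LTC4S, the levels were 159, 154 and 104 CPM (WT, D16), 10.6, 21.8 and 25.1 (WT, D30), 38.7, 51.3 and 33.7 (mutant, D16) and 34, 31.3 and 64 (mutant, D30). The mutant libraries lay below WT at D16 and above at D30 (2.88 ± 0.45 SE, adjusted p = 0.0024).

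ADCYAP1, a neuropeptide gene, fell from 115, 95.1 and 104 CPM to 1.45, 2.21 and 4.60 in WT, and read 119, 76.7 and 69.6 and 18.4, 49.5 and 76.9 in the mutant. It fell less, with an interaction of 4.36 ± 0.62 (SE, adjusted p = 0.0015), and every mutant library at D30 exceeded the WT libraries. ENPP3, the basophil surface enzyme CD203c, rose instead. ENPP3 read 11, 9.04 and 6.28 CPM in the 3 WT libraries at D16 and 3.38, 2.61 and 4.60 at D30, against 2.83, 2.59 and 1.55 and then 11.4, 10 and 12.1 in the mutant. The order of the genotypes turned over, with an interaction of 3.59 ± 0.43 (SE, adjusted p = 0.0007). SLC45A3, a sugar transporter on chromosome 1q known in mast cells and basophils, did not fall. WT libraries held 634, 461 and 418 CPM of SLC45A3 at D16 and 87.7, 109 and 98.6 at D30, and mutant libraries 319.7, 262 and 244 and 238, 342 and 489. All 3 mutant libraries lay below WT at D16 and above it at D30, with an interaction of 2.72 ± 0.33 (SE, adjusted p = 0.00071). IL9R, the receptor of a mast cell growth factor, fell less (3.21 ± 0.36 SE, adjusted p = 0.00059), as did IL5RA, the receptor of the eosinophil cytokine IL-5 (1.81 ± 0.45 SE, adjusted p = 0.0226).

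PRG2, the major basic protein of eosinophil granules, fell less, and its level varied widely between replicates. In WT, PRG2 went from 32048, 25907 and 17718 CPM at D16 to 519.9, 2826 and 2477 at D30, and in the mutant from 4155, 5619 and 3518 to 1420, 2104 and 3321. It was below WT in every mutant library at D16 and overlapped WT at D30, with an interaction of 2.74 ± 0.69 (SE, adjusted p = 0.0232). ALOX15, the lipoxygenase of eosinophils, rose instead with an interaction of 3.56 ± 0.66 (SE, adjusted p = 0.0056), and WT D30 replicate 1 held 10 CPM beside 56.6 and 40.2 in the other two. ADGRE1, an adhesion receptor of eosinophils and macrophages, rose instead as well (2.44 ± 0.46 SE, adjusted p = 0.0064). CEBPE, the factor that drives the granules of neutrophils and eosinophils, did not fall. For CEBPE, the levels were 108, 97.3 and 90.1 CPM (WT, D16), 20.9, 53.9 and 66.5 (WT, D30), 13.7, 25.5 and 19.7 (mutant, D16) and 17.9, 33.3 and 36.4 (mutant, D30). It was low in the mutant at D16 and overlapped WT at D30 (1.61 ± 0.50 SE, adjusted p = 0.0557), and 6 of the 23 alternatives ended its call.

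The letters AGATAA or TGATAA, which GATA factors bind, stood on either strand in the promoters of 7 of 16 mast cell and basophil genes with an entry (43.8%), 3 of 9 eosinophil genes (33.3%) and 11 of 18 erythroid genes (61.1%), against 13.1% of all tested genes. The share was 15.9% for genes with an interaction above 0 and 12.7% for those below. The 160 bases before a start are printed for IL1RL1, which fell less, and for HBD, a globin that fell less, with the matches in capitals.
IL1RL1, chr2:102311403-102311562, plus strand: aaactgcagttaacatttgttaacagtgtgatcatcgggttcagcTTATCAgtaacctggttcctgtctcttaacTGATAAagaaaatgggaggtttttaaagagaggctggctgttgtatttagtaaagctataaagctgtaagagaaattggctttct
HBD, chr11:5234484-5234643, minus strand: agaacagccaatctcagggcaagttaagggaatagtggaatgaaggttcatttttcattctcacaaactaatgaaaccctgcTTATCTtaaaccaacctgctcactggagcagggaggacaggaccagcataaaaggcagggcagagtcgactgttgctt

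IL1RL1 holds 2 matches in this window and HBD holds 1. Among azurophil granule genes, made in promyelocytes, 4 of 16 had an interaction above 0 and 0 below, where 8.57% of all genes lay above. In the mutant all 4 failed to fall: CST7 and AZU1 fell less, and CTSG and BPI did not fall. Over the 16, the median interaction was -0.47, of the opposite sign to these 4, and the median genotype difference was -1.03 at D16 and -1.27 at D30. The list summed to 6050 to 13600 CPM in WT and 4220 to 6050 in the mutant at D16, and to 2590 to 4530 and 1000 to 2380 at D30. BPI, which binds bacterial lipopolysaccharide, had a WT level far above the mutant at D16. BPI read 173, 208 and 139 CPM in the 3 WT libraries at D16 and 36.4, 52.5 and 98.1 at D30, against 15.3, 18.9 and 15.8 and then 10.4, 25.8 and 35.4 in the mutant. Its mutant libraries stayed below WT on both days, and the interaction was 1.95 ± 0.54 (SE, adjusted p = 0.0354). The interactions were 2.55 ± 0.55 (SE, adjusted p = 0.0115) for CST7, a protease inhibitor, 2.92 ± 0.81 (SE, adjusted p = 0.0351) for CTSG, a serine protease, and 2.26 ± 0.80 (SE, adjusted p = 0.0857) for AZU1, whose call ended in 11 of the 23 alternatives. Without USB1 mutant D30 replicate 3, the list had 3 members above 0 and 3 below. Specific and gelatinase granule genes had 3 of 18 above 0 and 4 below, against 8.57% and 8.79% of all genes. The count above 0 was 1 without WT D16 replicate 1 or 2 or WT D30 replicate 1 or 2. It was also 1 without USB1 mutant D16 replicate 3 or USB1 mutant D30 replicate 3. The sums of this list lay lower in the mutant on both days, without overlap. They were 632 to 861 CPM in WT against 243 to 306 at D16, and 5090 to 9000 against 1090 to 1340 at D30.

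ARG1, an arginase of granulocytes, rose instead (3.49 ± 0.55 SE, adjusted p = 0.0025). WT libraries held 54.6, 73 and 29.4 CPM of ARG1 at D16 and 11.1, 7.03 and 14 at D30, and mutant libraries 2.75, 6.16 and 3.43 and 8.54, 12.6 and 5.94. It was low in the mutant at D16 and overlapped WT at D30. HP, haptoglobin, fell further (-2.57 ± 0.55 SE, adjusted p = 0.0115). In WT, HP went from 105, 159.8 and 159 CPM at D16 to 55.5, 36.8 and 96.3 at D30, and in the mutant from 92.6, 120.3 and 104 to 3.20, 9.05 and 13.2. The mutant libraries at D30 were all below WT. OLFM4, of specific granules, had 0 counts in all 3 mutant libraries at D30 and 5.34 CPM on average in WT, which was at least 47.5-fold higher when a floor of 3 counts over the mutant group stands for 0.

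Most red cell genes rose in both genotypes, and part of them rose further in the mutant. Of 26 erythroid regulators and membrane genes, 18 rose in WT and 21 in the mutant, where 33.0% and 35.2% of all genes rose. The interaction was above 0 for 9 and below for 2, against 8.57% and 8.79% of all genes. For the 26 genes, the median change was 1.56 in WT and 2.60 in the mutant. Their sum was 1520 to 1670 CPM in WT and 1790 to 2140 in the mutant at D16, and 3780 to 5260 and 6650 to 14700 at D30. Globins had 5 of 10 members above 0 and 0 below, where 8.57% of all genes lay above. Heme synthesis genes had 4 of 14 above 0 and 0 below, beside the same share. Globins together held 12700 to 16900 CPM in WT and 53400 to 89600 in the mutant at D30, from 467 to 864 and 915 to 1470 at D16. When scaling factors left out globins and the top 20 genes, the test called 2654 genes, 54.7% of them above 0 in place of 49.3%.

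HBE1 (ENSG00000213931, chr11:5268345-5505652, minus strand), the embryonic beta-like globin, rose further. HBE1 read 86.3, 131 and 119 CPM in the 3 WT libraries at D16 and 3540, 2540 and 3441 at D30, against 124, 132 and 172 and then 28649, 14287 and 16470 in the mutant. Each mutant library at D30 was above each WT library, and the interaction was 2.30 ± 0.38 (SE, adjusted p = 0.003). HBA1, an alpha globin whose reads cannot be separated cleanly from those of HBA2, also rose further. WT libraries held 24.7, 49.7 and 47.7 CPM of HBA1 at D16 and 2984, 2904 and 3074 at D30, and mutant libraries 45.2, 54.8 and 104 and 20452, 10424 and 18376. At D16 the genotypes overlapped, and at D30 each mutant library was above WT, with an interaction of 1.72 ± 0.47 (SE, adjusted p = 0.0351). HBQ1, the theta globin, rose further (2.43 ± 0.46 SE, adjusted p = 0.0064), and HBD, the delta globin, fell less (1.70 ± 0.33 SE, adjusted p = 0.007), from 89.3, 106 and 111 to 2.17, 5.43 and 5.52 CPM in WT and from 113, 137 and 96 to 17.2, 16.3 and 16 in the mutant.

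TRIM58, a ubiquitin ligase that acts when red cells shed their nuclei, rose further. In WT, TRIM58 went from 39, 35.9 and 37.5 CPM at D16 to 103, 46.3 and 54 at D30, and in the mutant from 23.8, 26.6 and 31.2 to 504, 267 and 243. Mutant libraries were lower at D16 and higher at D30, with an interaction of 2.79 ± 0.43 (SE, adjusted p = 0.0022). DMTN, which bundles actin in the red cell membrane skeleton, rose further. For DMTN, the levels were 51.9, 51 and 43.2 CPM (WT, D16), 127, 115 and 119 (WT, D30), 49.3, 49.5 and 62.6 (mutant, D16) and 753, 366 and 465 (mutant, D30). The genotypes overlapped at D16, and all mutant libraries were above WT at D30, with an interaction of 1.99 ± 0.30 (SE, adjusted p = 0.0022). FECH, the last enzyme of heme synthesis, and SLC25A37, the mitochondrial iron importer mitoferrin, rose further with interactions of 1.41 ± 0.26 (SE, adjusted p = 0.005) and 1.39 ± 0.40 (SE, adjusted p = 0.0407). ALAS1, the first enzyme of heme synthesis in cells outside the red lineage, rose in the mutant alone. ALAS1 read 856, 736 and 434 CPM in the 3 WT libraries at D16 and 314, 481 and 545 at D30, against 129, 178 and 124 and then 257, 516 and 605 in the mutant. It started far lower in the mutant and overlapped WT at D30 (2.27 ± 0.45 SE, adjusted p = 0.008). SLC25A38, which brings glycine into mitochondria, rose instead (1.34 ± 0.22 SE, adjusted p = 0.0029), and TSPAN33, a tetraspanin, fell instead of rising (-2.08 ± 0.28 SE, adjusted p = 0.0013).

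Other genes that rose further or in the mutant alone were named by the smallest p of their class and were on none of the lists. EIF2AK1 encodes the heme-regulated kinase HRI, which slows globin translation when heme is short, and it rose further. WT libraries held 141, 159.8 and 134 CPM of EIF2AK1 at D16 and 234, 192 and 199 at D30, and mutant libraries 119, 115 and 135 and 798, 541 and 676. At D16 the genotypes overlapped, and at D30 each mutant library was above WT, with an interaction of 1.93 ± 0.22 (SE, adjusted p = 0.00065). MYLIP, a ubiquitin ligase that degrades the LDL receptor, rose further (1.91 ± 0.22 SE, adjusted p = 0.00065), as did NUDT4 (1.91 ± 0.24 SE, adjusted p = 0.00077) and RUNDC3A (2.37 ± 0.30 SE, adjusted p = 0.00083). FAM117A rose in the mutant alone. In WT, FAM117A went from 98.4, 98.5 and 66.7 CPM at D16 to 116, 103 and 114 at D30, and in the mutant from 33, 44.1 and 35.7 to 454, 239 and 365. Its mutant libraries moved from below WT to above it (2.89 ± 0.31 SE, adjusted p = 0.00059). MACO1 and ZER1 rose in the mutant alone with interactions of 1.78 and 1.54. Whether the larger erythroid levels at D30 had a part in the other differences of that day was not tested.

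Most cell division genes fell between the days in both genotypes, and more of the mitosis genes than of the replication genes were called as falling further in the mutant. All 30 tested mitosis and spindle genes fell in WT and in the mutant, where 34.5% and 35.9% of all genes fell. Of the 30 mitosis genes, 24 had an interaction below 0 and 0 above, where 8.79% of all genes lay below. The median change was -1.64 in WT and -2.75 in the mutant, and the median interaction -1.03. The list summed to 3000 to 3890 CPM in WT and 3530 to 4470 in the mutant at D16, and to 912 to 1270 and 563 to 767 at D30. The count was 14 with the transcript lengths in the fit and 15 without WT D16 replicate 1, with 0 above in both. Of 30 replication and S phase genes, 27 fell and 1 rose in WT and 29 fell and 1 rose in the mutant. The interaction was below 0 for 14 and above for 0, with a median of -0.62, and 16 did not pass its test. Their sums overlapped at D30, at 993 to 1290 CPM in WT and 945 to 1240 in the mutant, after 2290 to 3140 and 3110 to 3710 at D16. The count below 0 was 5 with the transcript lengths, 7 without USB1 mutant D30 replicate 3, 6 without WT D16 replicate 1 or 2, WT D30 replicate 1 or USB1 mutant D16 replicate 1, 7 without WT D30 replicate 2, 8 without USB1 mutant D16 replicate 3 and 9 without USB1 mutant D30 replicate 2.

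KIF11 (ENSG00000138160, chr10:92574105-92655395, plus strand), the kinesin that pushes spindle poles apart, fell further. KIF11 read 97.5, 106 and 129.7 CPM in the 3 WT libraries at D16 and 33.7, 34.6 and 29.6 at D30, against 168, 134 and 158 and then 19.8, 17.5 and 14.2 in the mutant. Mutant libraries were above WT at D16 and below it at D30, and the interaction was -1.38 ± 0.22 (SE, adjusted p = 0.0027). BUB1, a kinase of the spindle checkpoint, followed the same order. WT libraries held 105, 133 and 157 CPM of BUB1 at D16 and 26.6, 28.7 and 24.6 at D30, and mutant libraries 217, 179 and 190 and 17.5, 17.3 and 17.3. All 3 mutant libraries lay above WT at D16 and below it at D30, with an interaction of -1.19 ± 0.21 (SE, adjusted p = 0.0047). CCNB1, the cyclin that starts mitosis, fell further. In WT, CCNB1 went from 60.6, 74.8 and 92.3 CPM at D16 to 28, 22.2 and 20.2 at D30, and in the mutant from 127, 106 and 102 to 15.8, 11.7 and 9.29. Every mutant library was above the WT range at D16 and below it at D30, with an interaction of -1.46 ± 0.29 (SE, adjusted p = 0.0078). CEP55, needed for the final cut between daughter cells, fell further (-1.96 ± 0.26 SE, adjusted p = 0.0011), and so did NDC80, of the kinetochore (-1.25 ± 0.24 SE, adjusted p = 0.0074), whose call ended with the transcript lengths (adjusted p = 0.297). Among replication genes, RRM2, a subunit of ribonucleotide reductase (-1.10 ± 0.24 SE, adjusted p = 0.0121), CLSPN, of the replication checkpoint (-1.13 ± 0.29 SE, adjusted p = 0.0268), and MCM3, of the replicative helicase (-0.94 ± 0.26 SE, adjusted p = 0.0345), fell further.

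Mitotic genes share promoter elements through which they are repressed when cells leave the cycle. The letters TTTGAA, known as the CHR, were found on either strand in the promoters of 18 of the 25 mitosis genes with an entry (72.0%) and in 14.4% of all tested genes. The letters CCAAT were found in 21 of the 25 (84.0%) and in 43.1% of all. For replication genes the shares were 3.85% and 73.1%. The 160 bases before the start of 3 mitosis genes are printed with both kinds of match in capitals.
KIF11, chr10:92592970-92593129, plus strand: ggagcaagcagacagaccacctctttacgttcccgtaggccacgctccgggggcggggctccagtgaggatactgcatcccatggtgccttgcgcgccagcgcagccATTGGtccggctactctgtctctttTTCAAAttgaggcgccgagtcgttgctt
BUB1, chr2:110678064-110678223, minus strand: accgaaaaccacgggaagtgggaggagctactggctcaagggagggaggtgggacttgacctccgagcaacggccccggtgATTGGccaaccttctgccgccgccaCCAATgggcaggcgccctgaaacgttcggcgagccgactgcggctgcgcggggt
CCNB1, chr5:69166990-69167149, plus strand: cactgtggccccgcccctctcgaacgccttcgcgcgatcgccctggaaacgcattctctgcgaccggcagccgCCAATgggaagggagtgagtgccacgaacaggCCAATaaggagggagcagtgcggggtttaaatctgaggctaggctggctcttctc

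KIF11 holds 1 match of each kind in reverse orientation, and BUB1 and CCNB1 hold 2 CCAAT matches each in this window, 1 of those of BUB1 in reverse orientation. Inhibitors of cyclin-dependent kinases, which hold cells out of the cycle, had 4 of 8 members above 0 and 1 below. Over all genes, 8.57% lay above and 8.79% below. CDKN1A, the p21 protein, rose further. For CDKN1A, the levels were 146, 126 and 118 CPM (WT, D16), 212, 255 and 315 (WT, D30), 140.3, 136 and 127 (mutant, D16) and 495, 504 and 541 (mutant, D30). The genotypes overlapped at D16, and all mutant libraries at D30 were higher (0.93 ± 0.21 SE, adjusted p = 0.0153). CDKN2B, the p15 protein, rose further from a lower start. CDKN2B read 15.8, 12.9 and 8.46 CPM in the 3 WT libraries at D16 and 35.6, 34.3 and 27.5 at D30, against 2.91, 3.73 and 4.84 and then 68.1, 44.1 and 62.7 in the mutant. At D16 the mutant libraries were all below WT, and at D30 all above it, with an interaction of 2.51 ± 0.35 (SE, adjusted p = 0.0014). CDKN2A, which encodes p16 and ARF and overlaps an antisense gene, rose in the mutant alone (1.65 ± 0.30 SE, adjusted p = 0.0046), and CDKN1B, the p27 protein, rose instead (0.92 ± 0.21 SE, adjusted p = 0.0148).

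Targets of the tumour suppressor p53 had 13 of 26 members above 0 and 2 below, against 8.57% and 8.79% of all genes. The median change of these targets was 0.83 in WT and 1.17 in the mutant. Their summed level was 1900 to 2430 CPM in WT and 4040 to 5240 in the mutant at D30, and 1900 to 2220 and 1590 to 1820 at D16. AEN, an apoptosis-enhancing nuclease, rose further. WT libraries held 28.6, 16.8 and 39.2 CPM of AEN at D16 and 43, 50.4 and 65.8 at D30, and mutant libraries 41.2, 31.7 and 46.6 and 302, 209 and 271. At D16 the genotypes overlapped, and at D30 each mutant library was above WT, with an interaction of 1.79 ± 0.37 (SE, adjusted p = 0.0103). MDM2, the ubiquitin ligase that limits p53, rose further. In WT, MDM2 went from 127, 126 and 129.8 CPM at D16 to 151, 148 and 173 at D30, and in the mutant from 161, 143 and 136 to 353, 341 and 308. On both days every mutant library was above the WT range, with an interaction of 0.89 ± 0.17 (SE, adjusted p = 0.0064), and the call ended with the transcript lengths (adjusted p = 0.134). TP53INP1, of autophagy and cell death, rose instead (1.51 ± 0.24 SE, adjusted p = 0.0024), while TIGAR, which slows glycolysis, rose less (-1.67 ± 0.33 SE, adjusted p = 0.0073). The BCL2 family, which sets the threshold of mitochondrial cell death, had 3 of 16 above 0 and 3 below. The shares of all genes were 8.57% and 8.79%. BBC3, the killer protein PUMA and a p53 target, rose further. BBC3 read 9.43, 7.54 and 8.82 CPM in the 3 WT libraries at D16 and 24.9, 36.1 and 48.4 at D30, against 10.7, 13.4 and 13.6 and then 217, 113 and 181 in the mutant. No mutant library reached into the WT range, and all were above it on both days, with an interaction of 1.66 ± 0.36 (SE, adjusted p = 0.0129). BAK1, a pore former of the mitochondrial membrane, did not rise (-1.28 ± 0.24 SE, adjusted p = 0.0064), and BID and BOK fell instead (-0.91 ± 0.23 SE, adjusted p = 0.0226 and -2.96 ± 0.63 SE, adjusted p = 0.0116).

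Cells raise genes of the integrated stress response and chaperones when amino acids, heme or protein folding fail. Of 24 on this list, 14 had an interaction above 0 and 0 below, where 8.57% of all genes lay above. The median change was -1.16 in WT and -0.63 in the mutant, and the 14 genes were 5 that fell less, 1 that did not fall, 3 that rose instead, 4 that rose further and 1 that rose in the mutant alone. The list summed to 8310 to 10000 CPM in WT and 5900 to 6480 in the mutant at D16, and to 3690 to 3950 and 4500 to 5200 at D30, so the order of the genotypes turned over. ATF4 (ENSG00000128272, chr22:39519695-39522683, plus strand), the transcription factor at the centre of the response, rose instead. ATF4 read 404, 406 and 436 CPM in the 3 WT libraries at D16 and 223, 256 and 269.9 at D30, against 315, 355 and 374 and then 569, 459 and 675 in the mutant. Every mutant library was below WT at D16 and above it at D30 (1.44 ± 0.21 SE, adjusted p = 0.0019). CHAC1, a glutathione-degrading enzyme induced by ATF4, rose further. In WT, CHAC1 went from 4.94, 4.43 and 3.88 CPM at D16 to 7.98, 9.50 and 8.89 at D30, and in the mutant from 1.65, 1.22 and 0.874 to 37.5, 16.2 and 30.2. At D16 the mutant libraries were all below WT, and at D30 all above it, with an interaction of 3.48 ± 0.44 (SE, adjusted p = 0.00083). DDIT3, the pro-death factor CHOP, rose further. For DDIT3, the levels were 14.2, 11.9 and 13 CPM (WT, D16), 36.4, 45.7 and 54.9 (WT, D30), 5.82, 8.14 and 11.6 (mutant, D16) and 107, 87.7 and 97.1 (mutant, D30). Every mutant library was below the WT range at D16 and above it at D30, with an interaction of 1.69 ± 0.30 (SE, adjusted p = 0.0049). ASNS, asparagine synthetase, rose instead from 20.4, 18.5 and 18.8 CPM in WT and 16.6, 15.9 and 12.3 in the mutant at D16 to 40.6, 19.4 and 34.9 in the mutant at D30, where WT held 15.3, 12.4 and 11.7 (1.63 ± 0.33 SE, adjusted p = 0.00979). Outside the list, ERN1, the endoplasmic reticulum stress sensor IRE1, rose in the mutant alone (1.46 ± 0.21 SE, adjusted p = 0.0017), and so did CEBPG, a partner of ATF4 (1.23 ± 0.18 SE, adjusted p = 0.0017).

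The letters TGATGNAA, part of the element that ATF4 and C/EBP factors share, were found on either strand in the promoters of 3 of the 23 stress genes with an entry (13%) and in 2.94% of all tested genes. The share was 3.40% for genes with an interaction above 0 and 2.98% for those below. The windows of ASNS (160 bases before its start) and CHAC1 (220 bases) are printed with the match in capitals.
ASNS, chr7:97872409-97872568, minus strand: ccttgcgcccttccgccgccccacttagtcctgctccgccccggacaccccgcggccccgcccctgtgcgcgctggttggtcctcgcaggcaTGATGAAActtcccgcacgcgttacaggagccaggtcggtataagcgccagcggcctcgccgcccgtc
CHAC1, chr15:40953251-40953470, plus strand: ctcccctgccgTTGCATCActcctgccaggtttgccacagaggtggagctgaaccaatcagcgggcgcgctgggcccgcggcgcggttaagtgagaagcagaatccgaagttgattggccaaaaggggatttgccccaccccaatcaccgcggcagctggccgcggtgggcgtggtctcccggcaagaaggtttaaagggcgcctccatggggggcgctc

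Each of these windows holds 1 match. Genes of oxidant defence had 7 of 22 above 0 and 1 below, against 8.57% and 8.79% of all genes. SLC7A11, the cystine importer that feeds glutathione synthesis, rose instead. WT libraries held 139, 114 and 114 CPM of SLC7A11 at D16 and 56.9, 47.1 and 48.4 at D30, and mutant libraries 75.8, 55.9 and 51.5 and 146, 87.4 and 91.2. The genotypes exchanged order between the days (2.09 ± 0.29 SE, adjusted p = 0.0013). FTH1 and FTL, the heavy and light chains of the iron store ferritin, rose further (1.55 ± 0.25 SE, adjusted p = 0.0029 and 1.31 ± 0.30 SE, adjusted p = 0.0168), and GPX3, a secreted peroxidase, rose instead (1.89 ± 0.29 SE, adjusted p = 0.0023). The plot of single members sets these lists side by side.

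**Figure D4:**
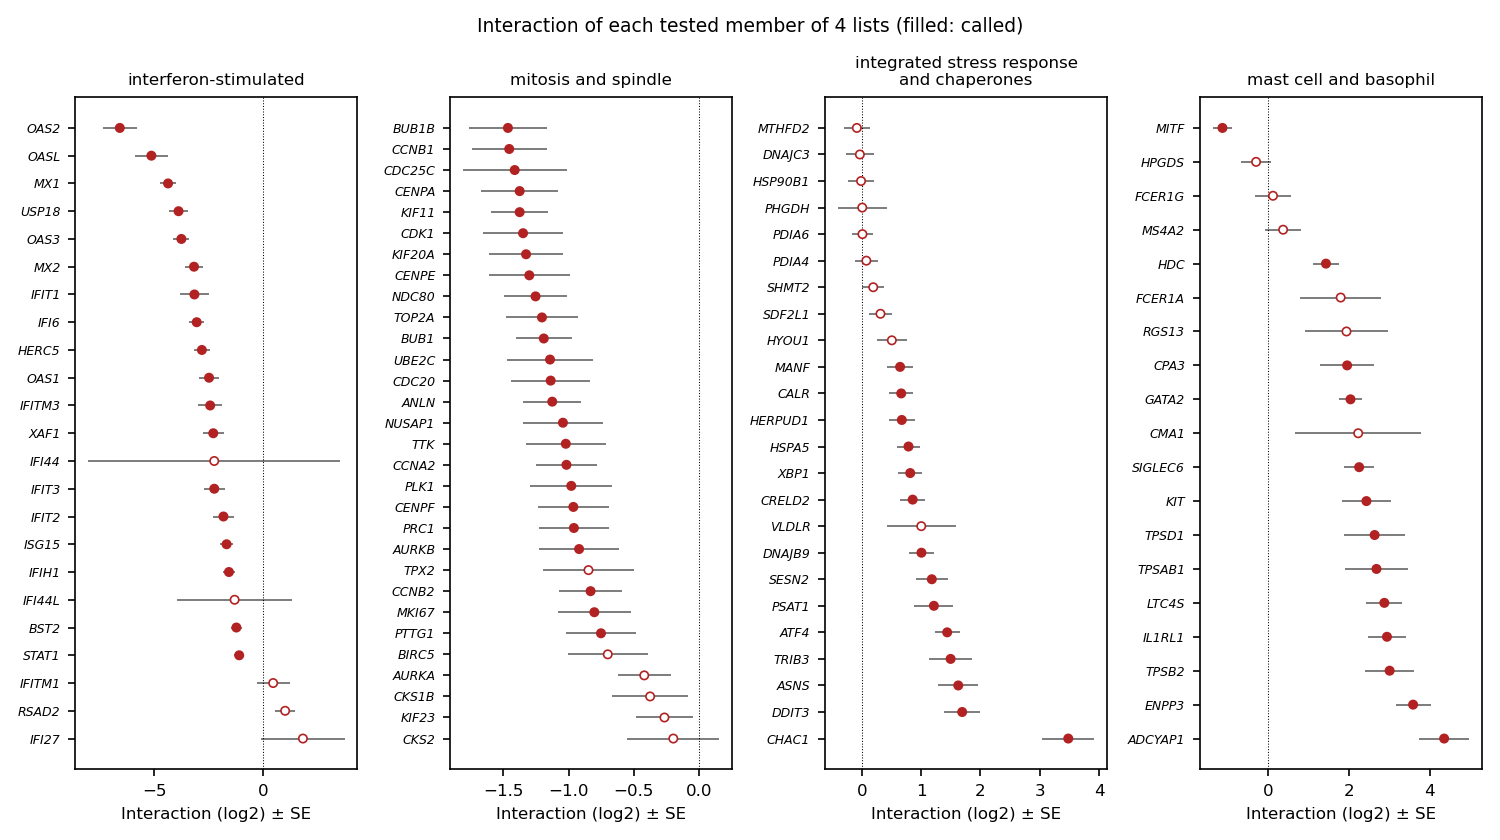
Interaction (x axis, log2, bars 1 SE) of each tested member of the interferon-stimulated, mitosis and spindle, integrated stress response and mast cell lists, filled where the adjusted p was under 0.1. Filled points lie below 0 for 18 interferon and 24 mitosis genes and above 0 for 14 stress and 12 mast cell genes, with MITF the mast cell list's filled point below 0.

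Hematopoietic transcription factors moved in both directions, with 7 of 26 above 0 and 5 below, against 8.57% and 8.79% of all genes. Without WT D16 replicate 1 or USB1 mutant D16 replicate 3 the count below was 0. It was 1 without WT D30 replicate 2 or 3, 2 without WT D16 replicate 2, and 3 without WT D30 replicate 1, USB1 mutant D16 replicate 2 or USB1 mutant D30 replicate 3. Beside GATA1, GATA2 and CEBPE, the members above 0 included GFI1, a repressor that neutrophil progenitors need, which fell less. In WT, GFI1 went from 192, 175 and 136 CPM at D16 to 21.1, 24.4 and 35.1 at D30, and in the mutant from 103, 96.4 and 85.6 to 31.2, 57.5 and 76.9. All mutant libraries were below WT at D16, and the genotypes overlapped at D30, with an interaction of 1.84 ± 0.38 (SE, adjusted p = 0.00982). LYL1, of the stem cell and mast cell programme, rose in the mutant alone. LYL1 read 121, 123 and 106 CPM in the 3 WT libraries at D16 and 118, 152 and 157 at D30, against 107, 148 and 139 and then 418, 336 and 452 in the mutant. At D16 the genotypes overlapped, and at D30 each mutant library was above WT, with an interaction of 1.32 ± 0.23 (SE, adjusted p = 0.0045). MYB, a driver of progenitor growth, fell less at the edge of the threshold (0.83 ± 0.30 SE, adjusted p = 0.0962), and the call ended in 12 of the 23 alternatives. RUNX1 and RUNX2, factors of blood and of bone, had lower levels in the mutant at D16 and close levels at D30. WT libraries held 460.5, 441 and 355 CPM of RUNX1 at D16 and 195, 225 and 192 at D30, and mutant libraries 318, 292 and 239 and 197, 199 and 208. The interactions did not pass, at 0.55 ± 0.20 (SE, adjusted p = 0.102) for RUNX1 and 1.49 ± 0.57 (SE, adjusted p = 0.115) for RUNX2, and passed in 9 and 5 of the 23 alternatives. CEBPA and SPI1, the myeloid factors C/EBP alpha and PU.1, had interactions of -0.21 ± 0.22 (SE, adjusted p = 0.573) and 0.08 ± 0.22 (SE, adjusted p = 0.861), and their genotype differences were called as lower in the mutant on both days.

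Cytokine receptors had 7 of 25 above 0 and 5 below, against 8.57% and 8.79% of all genes. The count below 0 was 2 without WT D16 replicate 1. It was 3 without WT D30 replicate 1 or 3, or without any of the 3 USB1 mutant D16 libraries. The 7 above 0 were KIT, EPOR, IL5RA, CSF2RB, IL1RL1, IL18R1 and CRLF2, and the 5 below were CSF1R, IL6ST, IL7R, IFNGR1 and IL13RA1. Members of this list with no value here are named to complete the count and were chosen after their values were seen. IL18R1, an IL-18 receptor chain that overlaps IL1RL1 on the same strand, did not fall (2.43 ± 0.43 SE, adjusted p = 0.0047), and CRLF2, the receptor for thymic stromal lymphopoietin, rose instead (2.42 ± 0.51 SE, adjusted p = 0.0112). Stem and progenitor genes had 6 of 19 below 0 and 1 above, and the count was 3 without WT D16 replicate 2, WT D30 replicate 2 or USB1 mutant D16 replicate 3. LIN28B, the fetal inhibitor of let-7 microRNA processing, fell further. For LIN28B, the levels were 84.2, 80.7 and 113 CPM (WT, D16), 28.4, 32.8 and 27.3 (WT, D30), 142, 107 and 120.4 (mutant, D16) and 14.6, 23.9 and 12.7 (mutant, D30). The genotypes overlapped at D16, and all mutant libraries were below WT at D30, with an interaction of -1.17 ± 0.30 (SE, adjusted p = 0.026). IGF2BP3, an RNA-binding protein of fetal progenitors, fell in the mutant alone (-0.74 ± 0.16 SE, adjusted p = 0.0134), and MSI2, another such protein, fell less (0.67 ± 0.19 SE, adjusted p = 0.0382).

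Endothelial genes had 5 of 16 below 0 and 1 above, against 8.79% and 8.57% of all genes. ERG, a factor of endothelium and stem cells, had 0 counts in the mutant at D30 after 9.52, 7.46 and 12.3 CPM at D16, a level at least 86.8-fold higher than the floor of 3 counts over the group. In WT it fell from 2.53, 3.65 and 8.61 to 1.21, 0.352 and 0.818 CPM. TIE1, an endothelial receptor kinase, fell further (-1.34 ± 0.35 SE, adjusted p = 0.0281), ENG, a co-receptor for TGF-beta that macrophages share, rose less (-1.11 ± 0.26 SE, adjusted p = 0.0166) and KDR, the VEGF receptor, fell less (1.37 ± 0.37 SE, adjusted p = 0.0341). Megakaryocyte and platelet genes mostly fell, 18 of 21 in WT and 19 in the mutant, where 34.5% and 35.9% of all genes fell. Of the 21, 1 had an interaction above 0 and 2 below. VWF, the adhesion protein of platelets and endothelium, fell instead of rising. VWF read 3.45, 4.31 and 4.23 CPM in the 3 WT libraries at D16 and 13.4, 16.5 and 16 at D30, against 6.61, 9.21 and 8.80 and then 4.37, 5.92 and 2.58 in the mutant. Every mutant library was above the WT range at D16 and below it at D30, with an interaction of -2.79 ± 0.37 (SE, adjusted p = 0.0011). F2RL3, a thrombin receptor, fell less (1.54 ± 0.27 SE, adjusted p = 0.0039), and ITGB3, a platelet integrin chain, fell further (-0.80 ± 0.27 SE, adjusted p = 0.0708), a call that ended in 8 of the 23 alternatives.

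Of 30 tested enzymes and binding proteins of U6 and RNA tails, 1 had an interaction above 0 and 3 below, where 8.57% and 8.79% of all genes did. The member above 0 was PARN (ENSG00000140694, chr16:14435700-14632728, minus strand), a deadenylase that, like USB1, removes oligo(A) tails. PARN read 30.6, 38.2 and 40.8 CPM in the 3 WT libraries at D16 and 27.2, 33.7 and 22.7 at D30, against 7.87, 7.53 and 7.19 and then 21.6, 32.7 and 23.2 in the mutant. All mutant libraries were far below WT at D16 and overlapped WT at D30. PARN rose in the mutant and was called as falling in WT, whose libraries of D16 and D30 overlapped (2.18 ± 0.28 SE, adjusted p = 0.00092). LARP7, which binds the RNA 7SK, fell in the mutant alone (-0.81 ± 0.24 SE, adjusted p = 0.0441), SSB, the La protein that binds the U-rich ends of new small RNAs, fell further (-0.70 ± 0.23 SE, adjusted p = 0.0664), and LSM4, of the ring that holds the U6 end, fell in the mutant alone (-0.63 ± 0.23 SE, adjusted p = 0.0984). The calls of LARP7, SSB and LSM4 ended in 3, 9 and 15 of the 23 alternatives. The count below 0 was 0 without WT D16 replicate 1 or 2 or USB1 mutant D16 replicate 1, 1 without USB1 mutant D16 replicate 2 or 3 or WT D30 replicate 1 or 2, and 5 without WT D16 replicate 3. Genes of microRNA processing had 3 of 18 above 0 and 1 below, the latter LIN28B, and the count above 0 was 1 without WT D16 replicate 1 or 2 or WT D30 replicate 2 or 3. TNRC6B, a scaffold of microRNA silencing, rose instead (0.99 ± 0.24 SE, adjusted p = 0.0188), AGO2, the slicing Argonaute, rose in the mutant alone (0.90 ± 0.28 SE, adjusted p = 0.0592), and TNRC6C did not fall (1.06 ± 0.34 SE, adjusted p = 0.0611). The calls of AGO2 and TNRC6C ended in 8 and 9 alternatives. Of 27 genes whose inherited mutations cause neutropenia, 4 were above 0 and 1 below, and the count above 0 was 7 with the 5 CPM filter, with DESeq2, with 18 libraries and with the scaling without globins, and 2 without WT D16 replicate 1 or 2, WT D30 replicate 1 or USB1 mutant D16 replicate 3. Beside GFI1 and GATA2 they included TAFAZZIN, of mitochondrial cardiolipin, which rose further (0.70 ± 0.22 SE, adjusted p = 0.0541), and VPS45, of vesicle fusion and on chromosome 1q, which fell in the mutant alone (-0.93 ± 0.27 SE, adjusted p = 0.0442), and their calls ended in 7 and 5 alternatives.

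Some of the largest interactions came from genes outside these lists. ADAMTS7, a secreted protease, did not fall. WT libraries held 14.7, 17 and 12.7 CPM of ADAMTS7 at D16 and 1.57, 0.754 and 0.613 at D30, and mutant libraries 47.9, 44.4 and 29.2 and 30.3, 27.9 and 41.6. The mutant libraries were higher on both days, and by far more at D30 (3.70 ± 0.41 SE, adjusted p = 0.00059). KIF5A, a kinesin best known in neurons, rose further. In WT, KIF5A went from 2.41, 2.57 and 1.91 CPM at D16 to 11.7, 16.8 and 26.5 at D30, and in the mutant from 0.393, 0.761 and 1.34 to 108, 71.9 and 114. All 3 mutant libraries lay below WT at D16 and above it at D30, with an interaction of 3.83 ± 0.52 (SE, adjusted p = 0.0013). ANKRD18A rose further from under 1 CPM in the mutant to 27.6, 13.5 and 13.4 at D30, where WT held 2.17, 2.56 and 3.68 (5.58 ± 0.79 SE, adjusted p = 0.0015). IGFBP5, which binds insulin-like growth factors, rose instead (4.82 ± 0.77 SE, adjusted p = 0.0026). C3orf80, CCDC141, TTN and PERP did not fall, with interactions of 4.73, 4.04, 3.94 and 3.86. At D30, C3orf80, CCDC141 and PERP averaged only 0.74, 0.84 and 0.72 CPM in WT. Their mutant libraries at D30 spread over 5.24 to 30.7, 1.84 to 10.6 and 2.81 to 15.75 CPM. CCDC141 overlaps TTN on the same strand. Below 0, FLOT1, a scaffold of membrane rafts, did not rise. FLOT1 read 4.14, 2.27 and 1.41 CPM in the 3 WT libraries at D16 and 68.2, 55.9 and 31.3 at D30, against 14.9, 4.11 and 3.43 and then 9.41, 7.45 and 10.3 in the mutant. At D16 the genotypes overlapped, and at D30 each mutant library was below WT, with an interaction of -4.11 ± 0.73 (SE, adjusted p = 0.0045). COL8A2 rose less (-4.08 ± 0.74 SE, adjusted p = 0.0049), from a mean of 0.66 CPM in WT at D16, and its genotype difference at D30 was -2.35. CPXM1 fell further, to under 1 CPM in every D30 library (-4.19 ± 1.26 SE, adjusted p = 0.0497), a call that ended without WT D30 replicate 2 (adjusted p = 0.34), without USB1 mutant D30 replicate 1 (0.116) and with limma-voom (0.148).

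SLC27A3 and ENTREP3, both on chromosome 1q, each had a group of libraries at 0. SLC27A3, a fatty acid transport protein that overlaps INTS3, had 0 counts in the 3 mutant libraries at D16 and 361, 225 and 112 at D30. With 3 counts over the group standing for 0, the later level was at least 371-fold higher. WT held 211, 247 and 134 counts of it at D16. At D30, WT held 97, 76.1 and 71.2 CPM of SLC27A3 and the mutant 35, 18 and 28.9. The mutant libraries were thus below WT on both days. ENTREP3 had 0 counts in the mutant at D30 after 135, 206 and 179 at D16, at least 114-fold higher, while WT held 73, 228 and 99 at D30. An estimated count of exactly 0 can also come from the assignment of reads between transcripts, which was not tested. On the long arm of chromosome 1 as a whole, 146 of 735 tested genes had an interaction, 95 above 0 and 51 below, and the median was 0.19. Over all genes, 17.4% had an interaction, 8.57% above 0 and 8.79% below. The median genotype difference on the arm was -0.43 at D16 and -0.30 at D30, against 0.07 and -0.01 over all genes. Without the genes of this arm, 2502 of the others were called, 1251 in each direction.

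Further genes show the remaining kinds of change by their values. MATK, a kinase that restrains SRC-family kinases, did not rise. For MATK, the levels were 15.6, 16.8 and 28.1 CPM (WT, D16), 101, 174 and 132 (WT, D30), 44.1, 45.7 and 54.3 (mutant, D16) and 45.7, 53.8 and 43.6 (mutant, D30). The mutant libraries kept the same range of levels while WT passed it (-2.75 ± 0.33 SE, adjusted p = 0.00065). SRC itself and KALRN did not rise either (-1.60 ± 0.20 SE, adjusted p = 0.00092 and -1.88 ± 0.27 SE, adjusted p = 0.0015). TIMP3, an inhibitor of metalloproteinases, fell instead. WT libraries held 141, 157 and 217 CPM of TIMP3 at D16 and 242, 336 and 338 at D30, and mutant libraries 393, 389.9 and 468 and 164, 274 and 242. It was higher in the mutant at D16 and overlapped WT at D30 (-1.71 ± 0.30 SE, adjusted p = 0.0043). PAQR4 and PARVB fell instead as well (-1.66 ± 0.22 SE, adjusted p = 0.0011 and -1.21 ± 0.20 SE, adjusted p = 0.0029). TUBA4A, an alpha tubulin of platelets and late red cells, rose instead. In WT, TUBA4A went from 89.4, 76.6 and 61.6 CPM at D16 to 38, 36.1 and 50.2 at D30, and in the mutant from 39.5, 41.1 and 36.4 to 105, 76.5 and 99.4. At D16 the mutant libraries were all below WT, and at D30 all above it, with an interaction of 2.14 ± 0.25 (SE, adjusted p = 0.00065). JMJD6 rose instead too (1.41 ± 0.20 SE, adjusted p = 0.0015).

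Among genes that failed to fall, FBLN2, an extracellular matrix protein, fell less. FBLN2 read 45.8, 48.6 and 74 CPM in the 3 WT libraries at D16 and 4.11, 1.41 and 2.76 at D30, against 105, 131 and 139 and then 49, 53.4 and 85.5 in the mutant. It was higher in the mutant on both days (3.45 ± 0.44 SE, adjusted p = 0.00092). CAVIN2, of caveolae, and TESPA1 fell less (2.03 ± 0.28 SE, adjusted p = 0.0013 and 3.04 ± 0.31 SE, adjusted p = 0.00043), while EEIG1 and PIM2, a survival kinase, did not fall (2.76 ± 0.37 SE, adjusted p = 0.0011 and 1.64 ± 0.23 SE, adjusted p = 0.0015). H3C6, a histone gene with near-identical copies, fell in the mutant alone. WT libraries held 7.24, 16.8 and 21.3 CPM of H3C6 at D16 and 19.1, 23.8 and 11.4 at D30, and mutant libraries 259, 232 and 139.5 and 34.2, 31.7 and 24.8. Its mutant level at D16 stood apart from the 3 other groups (-3.03 ± 0.49 SE, adjusted p = 0.0027). DAAM1, an actin regulator, PRICKLE1, of planar polarity, and UTRN, utrophin, fell in the mutant alone (-1.50 ± 0.26 SE, adjusted p = 0.0038, -1.85 ± 0.30 SE, adjusted p = 0.003 and -1.10 ± 0.20 SE, adjusted p = 0.0052), and LGALSL and GABRE fell further (-1.69 ± 0.27 SE, adjusted p = 0.0027 and -1.42 ± 0.24 SE, adjusted p = 0.0033). The call of UTRN ended with the transcript lengths (adjusted p = 0.161).

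**Figure D5:**
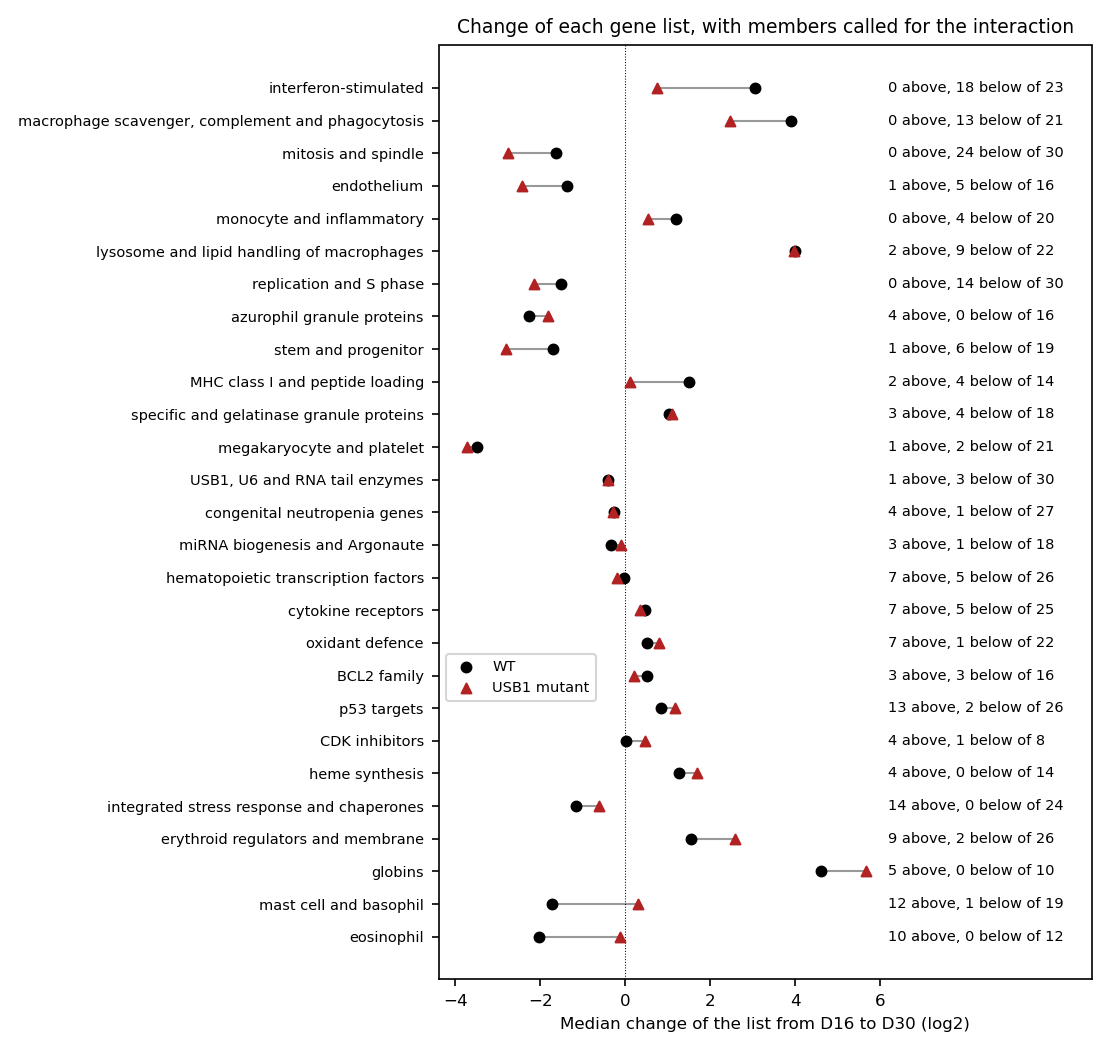
Median change from D16 to D30 (x axis, log2) of each of 27 gene lists in WT (black circles) and in the USB1 mutant (red triangles), ordered by the median interaction, with the number of members whose interaction was called above or below 0. The interferon list has the lowest median interaction, with medians of 3.06 in WT and 0.76 in the mutant, and the eosinophil list the highest, with -2.02 and -0.12.

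The plot of list medians puts the lists in order. The counts of the other lists stand beside 8.57% of all genes above 0 and 8.79% below: mature neutrophil surface and oxidase genes had 0 above 0 and 2 below of 20, MHC class II genes 0 and 0 of 12, mesenchymal stroma and collagens 3 and 1 of 24, leukocyte chemoattractant receptors 3 and 2 of 22, lymphoid genes 2 and 2 of 13, immediate early genes 1 and 0 of 22, ribosomal proteins 2 and 0 of 50, and pluripotency genes 1 and 1 of 10. Counts of 3 or fewer moved most without WT D16 replicate 3, when 5 mature neutrophil genes lay above 0, and without USB1 mutant D30 replicate 1, when 7 chemoattractant receptors did. Of the 160 genes named by the rule and reported here, 59 overlap another annotated gene, 19 of them on the same strand, and since the use of strand in the quantification was not stated, reads of such pairs may be mixed. Among those described by library values these include KIF5A with DCTN2, ADAMTS7 with MORF4L1, TIMP3 with SYN3, ARG1 with MED23, HP with TXNL4B, FAM117A with KAT7, DDIT3 with MARS1 and MBD6, TUBA4A with STK16 and MX1 with TMPRSS2. They also include USB1 with ZNF319, RUNX1 with RPL34P3, EZH2P1, RPS20P1 and PPP1R2P2, and ANKRD18A with CYP4F33P and SNX18P3. With ribosomal proteins, 49 of 50 fell in WT and 49 of 50 fell in the mutant, and 2 fell less. Over all genes, 34.5% fell in WT and 35.9% in the mutant.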

How the data were processed

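The authors trimmed the reads of rRNA-depleted, directional libraries with Trimmomatic 0.36 and quantified them against the human Ensembl transcriptome (GRCh38) with Salmon 0.13.1. They deposited, per gene and library, TPM, which were not used here, expected counts, and the average effective transcript length, which entered 1 alternative as an offset. How Salmon used strand was not stated. Tables of D16 and D30 were joined by gene ID, and the estimated counts were rounded. Of 35168 IDs, 35051 had a GENCODE v44 entry, and the other 117 held 0.2379% of counts. In R 4.3.3, edgeR 4.0.16 filtered genes (filterByExpr), scaled libraries by TMM and fitted 4 group means with its quasi-likelihood test, with Benjamini-Hochberg adjustment over 15492 genes. Genes were called at an adjusted p under 0.1, and over 2-fold was counted apart. The biological coefficient of variation was 0.201. Simulated counts of 15324 genes had the real interaction removed and 200 genes, each averaging over 5 CPM, changed 2-fold or 4-fold. Of these, 36% of genes changed 2-fold and 92% of genes changed 4-fold were recovered, and 0.145% of unchanged genes were called. The real fit called 17.4% of genes, many at lower levels, so these shares do not measure the accuracy of its calls.

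Named were 11 fixed genes, the 10 largest interactions in each direction among called protein-coding genes (fold above 2, average 5 CPM or more), up to 4 genes per kind of change with the smallest adjusted p and at least 20 CPM, and up to 4 called genes per list, of which 1 is not reported here. Genes whose lowest replicate was under 0.1 of a highest of at least 50 counts were left out of the second group. The members and lists were chosen with earlier results of these data known. The alternatives were 18 libraries, DESeq2 1.42.0, limma-voom (limma 3.58.1), RLE scaling, scaling that left out globins and the top 20 genes, other count filters, length offsets, no genes of 1q, a replicate block, an adjusted p under 0.05 and each library left out. Promoters are from RefSeq (GRCh38.p14).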

Additional observations from a re-analysis of the deposited data

Results flagged for a closer look

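The mutant change from D16 to D30 differed from the WT change, by the test of that difference, for 1327 genes above 0 and 1362 below. Each named gene that passed is given here with its interaction on the log2 scale. Genes that rose less in the mutant than in WT were OCSTAMP (-4.43), MMP12 (-4.15), SIGLEC11 (-4.10), COL8A2 (-4.08), OAS3 (-3.75), MMP9 (-2.31), FABP3 (-3.38), PARP14 (-2.24), VSIG4 (-2.87), MRC1 (-2.14), SIGLEC1 (-1.97), CLEC10A (-2.93), LPL (-3.67), NR1H3 (-1.67), TREM2 (-2.97), IFI6 (-3.05), ENG (-1.11) and TIGAR (-1.67). Those that did not rise in the mutant were MX1 (-4.37), FLOT1 (-4.11), MATK (-2.75), SRC (-1.60), KALRN (-1.88), CD36 (-2.34), FABP4 (-5.59), ERAP2 (-1.56), NLRC5 (-1.27), HLA-F (-3.63), CSF1R (-1.89) and BAK1 (-1.28). The genes that fell instead of rising were OAS2 (-6.58), USP18 (-3.88), EIF2AK2 (-1.87), PAQR4 (-1.66), PARVB (-1.21), TIMP3 (-1.71), TSPAN33 (-2.08), VWF (-2.79), BOK (-2.96) and BID (-0.91). In the group that fell less were GATA2 (2.04), MYB (0.83), ADCYAP1 (4.36), TESPA1 (3.04), IL9R (3.21), FBLN2 (3.45), CAVIN2 (2.03), CST7 (2.55), AZU1 (2.26), IL5RA (1.81), PRG2 (2.74), CALR (0.66), HBD (1.70), F2RL3 (1.54), KDR (1.37), MSI2 (0.67), IL1RL1 (2.94) and GFI1 (1.84). Named genes that did not fall were CEBPE (1.61), GATA1 (1.56), C3orf80 (4.73), CCDC141 (4.04), TTN (3.94), PERP (3.86), ADAMTS7 (3.70), SLC45A3 (2.72), EEIG1 (2.76), PIM2 (1.64), CTSG (2.92), BPI (1.95), LTC4S (2.88), IL18R1 (2.43) and TNRC6C (1.06).

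Genes that rose instead of falling were IGFBP5 (4.82), TUBA4A (2.14), PARN (2.18), SLC7A11 (2.09), JMJD6 (1.41), ARG1 (3.49), ALOX15 (3.56), ADGRE1 (2.44), ENPP3 (3.59), SLC25A38 (1.34), CRLF2 (2.42), CDKN1B (0.92), TP53INP1 (1.51), ATF4 (1.44), ASNS (1.63), GPX3 (1.89) and TNRC6B (0.99). Those that rose further were SLC27A3 (9.01), ANKRD18A (5.58), KIF5A (3.83), MYLIP (1.91), EIF2AK1 (1.93), NUDT4 (1.91), RUNDC3A (2.37), DMTN (1.99), TRIM58 (2.79), HBE1 (2.30), HBQ1 (2.43), HBA1 (1.72), FECH (1.41), SLC25A37 (1.39), CDKN2B (2.51), CDKN1A (0.93), MDM2 (0.89), AEN (1.79), BBC3 (1.66), CHAC1 (3.48), DDIT3 (1.69), FTH1 (1.55), FTL (1.31) and TAFAZZIN (0.70). The genes that fell further were ENTREP3 (-9.47), CPXM1 (-4.19), CEP55 (-1.96), LGALSL (-1.69), KIF11 (-1.38), GABRE (-1.42), HP (-2.57), CCR2 (-1.58), ITGB3 (-0.80), ERG (-7.12), TIE1 (-1.34), LIN28B (-1.17), RRM2 (-1.10), CLSPN (-1.13), MCM3 (-0.94), BUB1 (-1.19), NDC80 (-1.25), CCNB1 (-1.46) and SSB (-0.70). In the group that rose in the mutant alone were FAM117A (2.89), MACO1 (1.78), ZER1 (1.54), ERN1 (1.46), ALAS1 (2.27), CEBPG (1.23), LYL1 (1.32), CDKN2A (1.65) and AGO2 (0.90). Named genes that fell in the mutant alone were H3C6 (-3.03), PRICKLE1 (-1.85), DAAM1 (-1.50), UTRN (-1.10), OLFM4 (-8.14), VCAN (-2.03), CD86 (-0.85), IGF2BP3 (-0.74), LARP7 (-0.81), LSM4 (-0.63) and VPS45 (-0.93). The values of SLC27A3, ENTREP3, OLFM4 and ERG come from groups at 0 counts, depend on the prior count of the fit and are no bounds.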

How the results depend on the processing

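Other normalization (RLE scaling, or scaling without globins and abundant genes), other filters, DESeq2, limma-voom, 18 libraries and leaving out 1q called 2502 to 3447 genes, and no call of a named gene turned its direction under any of the 23 alternatives. With transcript lengths as offsets the number called was 1720, of them 828 below 0, the genotype difference at D16 held 2204 genes, and 457 failed to rise, 423 failed to fall and 435 moved further. At an adjusted p under 0.05, 1647 were called, 835 above and 812 below, the genotype difference at D16 held 2087, and 458 failed to rise, 392 failed to fall, 403 moved further and 394 moved in the mutant alone. With single libraries left out, the calls ranged over 1553 to 3400 for the interaction (826 to 1546 above 0, 727 to 1854 below, 1096 to 2000 over 2-fold), 9489 to 11011 for the WT change, 10268 to 11262 for the mutant change, 1441 to 4226 for genotype at D16 and 2883 to 4452 at D30, 430 to 895 for genes that failed to rise, 391 to 761 that failed to fall, 391 to 870 that moved further and 330 to 890 in the mutant alone. The cause was not tested. Replicate numbers are shared by the 4 groups, and the labels do not say what a number marks. Between genotypes, the deviations of same-numbered libraries correlated at 0.097, 0.161 and 0.272 on D16, against -0.184 to 0.036 for different numbers, and at 0.119, -0.032 and 0.216 on D30, against -0.304 to 0.188. Within a genotype across the days they correlated at -0.148 to 0.034. Not every pair was over 0.1, so the pairing was not used, and the D16 values are a hint from the data. The fit with a replicate block called 2565 genes, 2411 of them among the 2689. Of 153 named genes with a call, 126 lost it in no alternative that tested them. Genes of 1q were not tested in the fit without that arm, and other filters can also leave genes untested. The edgeR call was lost, with 1 library left out at a time, for AGO2 without WT D16 replicate 1 or 2, USB1 mutant D16 replicate 1 or 2 or WT D30 replicate 2 or 3 (adjusted p 0.103 to 0.123). It was lost for AZU1 without WT D16 replicate 2 or 3, USB1 mutant D16 replicate 1 or 2, WT D30 replicate 2 or 3 or USB1 mutant D30 replicate 1, 2 or 3 (adjusted p 0.107 to 0.17). It was lost for CALR without USB1 mutant D16 replicate 1 or WT D30 replicate 2 (adjusted p 0.102 to 0.118). It was lost for CCR2 without WT D16 replicate 1 or 2, USB1 mutant D16 replicate 1 or 3, WT D30 replicate 1, 2 or 3 or USB1 mutant D30 replicate 1 (adjusted p 0.102 to 0.165). It was lost for CD86 without WT D16 replicate 1 or 3, USB1 mutant D16 replicate 1, 2 or 3, WT D30 replicate 1 or 2 or USB1 mutant D30 replicate 1 or 3 (adjusted p 0.103 to 0.18). It was lost for CEBPE without WT D16 replicate 1 or 2, USB1 mutant D16 replicate 1 or 3 or USB1 mutant D30 replicate 3 (adjusted p 0.106 to 0.13). CPXM1 lost it without WT D30 replicate 2 or USB1 mutant D30 replicate 1 (adjusted p 0.116 to 0.34). ITGB3 lost it without WT D16 replicate 1 or 2, USB1 mutant D16 replicate 2 or 3, WT D30 replicate 3 or USB1 mutant D30 replicate 2 or 3 (adjusted p 0.102 to 0.18). KDR lost it without WT D30 replicate 2 (adjusted p = 0.104). LARP7 lost it without WT D16 replicate 1 or 2 or USB1 mutant D16 replicate 1 (adjusted p 0.101 to 0.109). LSM4 lost it without WT D16 replicate 1 or 2, USB1 mutant D16 replicate 1, 2 or 3, WT D30 replicate 1, 2 or 3 or USB1 mutant D30 replicate 1 or 3 (adjusted p 0.105 to 0.224). MMP12 lost it without USB1 mutant D16 replicate 3 (adjusted p = 0.167). MSI2 lost it without WT D16 replicate 1 (adjusted p = 0.104). MYB lost it without WT D16 replicate 1 or 2, USB1 mutant D16 replicate 1, 2 or 3, WT D30 replicate 1 or 2 or USB1 mutant D30 replicate 2 or 3 (adjusted p 0.133 to 0.204). SLC25A37 lost it without WT D16 replicate 2 (adjusted p = 0.103). SSB lost it without WT D16 replicate 1 or 2, USB1 mutant D16 replicate 1, 2 or 3, WT D30 replicate 1 or 2 or USB1 mutant D30 replicate 1 (adjusted p 0.103 to 0.159). TAFAZZIN lost it without WT D16 replicate 1 or 2, USB1 mutant D16 replicate 1 or 3, WT D30 replicate 1 or USB1 mutant D30 replicate 1 (adjusted p 0.1 to 0.128). TNRC6C lost it without WT D16 replicate 1 or 2, USB1 mutant D16 replicate 3, WT D30 replicate 1, 2 or 3 or USB1 mutant D30 replicate 1 (adjusted p 0.1 to 0.159). VCAN lost it without WT D16 replicate 1 or WT D30 replicate 1 (adjusted p 0.129 to 0.13). VPS45 lost it without WT D16 replicate 1 or 2, USB1 mutant D16 replicate 1 or WT D30 replicate 3 (adjusted p 0.1 to 0.109). With transcript lengths as offsets, calls were lost for MYB, LSM4, UTRN, AZU1, CCR2, NLRC5, HLA-F, KDR, RRM2, NDC80, MDM2, BID, AGO2, TNRC6C and VPS45. The number of libraries, and for low counts the depth of USB1 mutant D30 replicate 3, limit the precision.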
